A study of Mus musculus with 10 samples.

Results

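The D-type cyclins (Ccnd1, Ccnd2, Ccnd3), the E-type cyclins (Ccne1, Ccne2) and 5 inhibitors of cyclin-dependent kinases (Cdkn1a, Cdkn1b, Cdkn1c, Cdkn2a, Cdkn2b) were examined in adipocyte precursors (APs) cultured with or without IL-4. The genes were chosen with earlier results of these data known. Their rows were picked out by symbol, and all 10 were found among the 18384 genes listed in the mRNA-seq libraries. Each of the 10 had reads in every library and passed the filter on low counts. D-type cyclins bind CDK4 and CDK6 and start the phosphorylation of the retinoblastoma protein, and E-type cyclins bind CDK2 and complete it, which frees E2F factors to switch on genes for DNA replication. The Cip/Kip inhibitors p21 (Cdkn1a), p27 (Cdkn1b) and p57 (Cdkn1c) act mainly on CDK2 complexes, whereas the Ink4 inhibitors p15 (Cdkn2b) and p16 (from Cdkn2a) bind CDK4 and CDK6. Cdkn2a also encodes p19Arf, which is read from another frame and protects p53 from MDM2. In APs, the fibroblast-like cells of white fat that can divide or become adipocytes, this switch sets whether a cell enters another division.

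The APs came from subcutaneous white adipose tissue of C57BL/6J mice. Cells positive for CD45 and CD31 had been removed and SCA-1-positive cells were selected, and no genetic change or further agent is given for either group. For mRNA-seq, 3 control cultures and 3 cultures given IL-4 were harvested on day 4, and for small RNA sequencing, 2 control and 2 IL-4 cultures were harvested on day 2. The IL-4 dose, the age of the mice and the number of animals per culture are not given for these libraries in the sources used here. Nothing in the labels says that the cultures came from separate animals, although the study calls the small RNA samples biological replicates, so the p-values may measure only technical spread between these samples.

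The mRNA-seq libraries held 28526779 to 29057784 expected counts each, that is, reads assigned to genes by a statistical model. All 9 AP markers were listed, with a summed level of 3804 to 4126 FPKM (fragments scaled by transcript length and library size) in control and 4323 to 4682 FPKM in IL-4 libraries. Of these, 6 rose (Pdgfra, Ly6a, Cd34, Pi16, Col1a1 and Dcn), Pdgfrb and Lum fell, and Dpp4 was not called. Pdgfra and Ly6a, which encodes SCA-1, lay above 50 FPKM in every library, whereas Dpp4 stayed at or below 0.40 FPKM, and in control Pi16 was at 0.76 to 0.80 and Cd34 at 3.03 to 3.80 FPKM. All 10 macrophage markers were detected as well. Their summed level was 3070 to 3934 FPKM in control libraries and 1209 to 1547 FPKM in IL-4 libraries, with 8 of the 10 lower and 1 (Mrc1) higher after IL-4. Of all genes tested, 18.4% were lower and 19.0% higher. The leukocyte gene Ptprc, which encodes CD45, was at 16.95 to 19 FPKM in control and 8 to 8.48 FPKM in IL-4 libraries. The summed lymphocyte markers reached at most 0.15 FPKM, the summed endothelial markers lay between 9.09 and 12.4 FPKM, and of the mature adipocyte markers Fabp4 was the one above 1 FPKM. Of the endothelial markers, Cdh5 and Emcn fell (log2 fold change -1.60 and -1.49), Tek rose (0.81), and Pecam1 and Kdr were not called. Fabp4 rose (1.10). The part of these marker shifts in the values below was not tested, and fewer cells of a type cannot be told apart from less RNA per cell in such bulk samples.

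Counts also varied with transcript length. Among genes with transcripts over 5000 bases, the median count in control replicate 3 was 0.11 below its group mean on the log2 scale, and in IL-4 replicate 6 it was 0.23 below. Transcripts up to 1000 bases deviated the other way, by 0.12 and 0.27. These 2 libraries were therefore also left out together, and each library's trend on length was also used as an offset, both chosen after the data were seen. The groups differed with length as well. The median log2 difference of IL-4 minus control was 0.13 for transcripts up to 1000 bases and -0.11 for those over 5000 bases.

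After 4 days of IL-4, cyclin mRNA was lower and the inhibitors were split. Ccnd1, Ccnd3, Ccne1, Ccne2 and the inhibitor Cdkn2b fell, Cdkn1c and Cdkn2a rose, and Ccnd2, Cdkn1a and Cdkn1b did not pass the test (edgeR's quasi-likelihood test over 14009 genes, with p-values adjusted by Benjamini and Hochberg's method and a threshold of 0.05). Thus 5 of the 10 genes were called lower, beside 18.4% of all genes tested, and 2 were called higher, beside 19.0%. With a log2 fold change beyond 1 also asked for, Ccnd1 and Cdkn2b were called lower (2 of 10, beside 5.26% of all genes) and none was called higher (0 of 10, beside 5.77%). Cdkn2b lay at this limit, and without control replicate 1, IL-4 replicate 4 or IL-4 replicate 5 its value was -0.98, -0.98 or -0.97, which leaves Ccnd1 alone. The median log2 fold change was -0.36 over the 10 genes and 0.00 over all genes tested. In normalized counts the groups did not overlap for 8 of the 10 genes, where 50.4% of all genes tested showed no overlap.

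**Figure D1:**
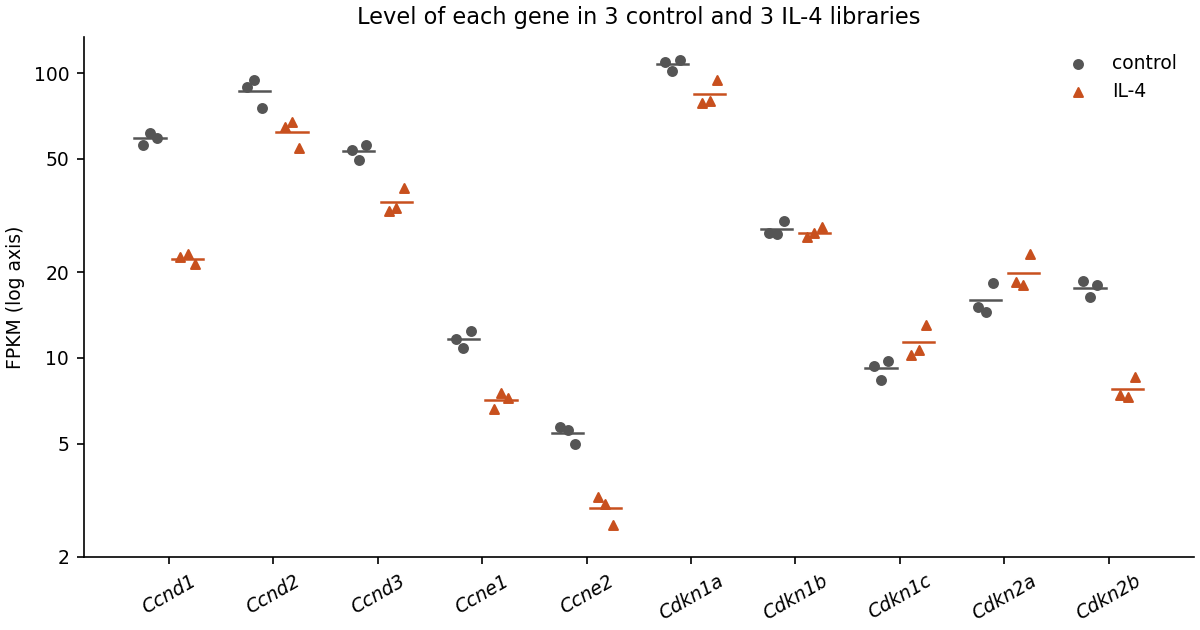
FPKM of each gene on a log axis in 3 control (circles) and 3 IL-4 (triangles) libraries, with a line at each group mean. Ccnd1 and Cdkn2b show the widest gaps, from 59.0 to 22.3 and from 17.7 to 7.75 FPKM, whereas the groups of Cdkn1b and Cdkn2a overlap on this scale.

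Ccnd1 encodes cyclin D1, the D-type cyclin best known as a target of growth factor and Wnt signals. The gene lies at chr7:144929931-144939831 on the minus strand (RefSeq genes on GRCm38, as for the other genes). Its level was 55.87, 61.81 and 59.25 FPKM in the control libraries and 22.56, 23.09 and 21.33 FPKM in the IL-4 libraries. Every IL-4 library lay below every control library, and the spread within each group was small beside the gap. The fitted level after IL-4 was 42.7% of control (log2 fold change -1.23, SE 0.07, adjusted p = 5.31e-06, edgeR, n = 3 each), the largest fold among the 10 genes. Leaving out any 1 library gave values between -1.27 and -1.18.

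Ccnd2 (chr6:127125162-127152188, minus strand) encodes cyclin D2 and had the longest transcript of the 10, at 5772 bases. It was the most abundant cyclin, at 89.62, 94.72 and 75.46 FPKM in control and 64.60, 67.51 and 54.55 FPKM in IL-4 libraries. The lowest value within each group was that of control replicate 3 and IL-4 replicate 6, the libraries low in long transcripts, and in normalized counts control replicate 3 (11594) overlapped IL-4 replicate 5 (11924). The log2 fold change of -0.30 (SE 0.12, edgeR adjusted p = 0.0802) missed the threshold. It was -0.30 with an adjusted p of 2.12e-05 without these 2 libraries and -0.22 with an adjusted p of 0.00736 with the length offset (edgeR), and without control replicate 3 alone it was -0.40 with an adjusted p of 0.0344.

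Ccnd3 (chr17:47505051-47599689, plus strand) encodes cyclin D3, the D-type cyclin most tied to differentiating tissues. It measured 53.84, 49.66 and 55.95 FPKM in control and 32.82, 33.68 and 39.49 FPKM in IL-4 libraries, again without overlap. The fitted level fell to 74.9% of control (log2 fold change -0.42, SE 0.08, edgeR adjusted p = 0.00363). The 3 D-type cyclins were thus all lower in FPKM, but to different extents, and their proportions differed. Ccnd1 made up 29.7% ± 1.54 of their summed FPKM in control and 18.6% ± 0.162 in IL-4 libraries, and Ccnd2 made up 43.5% ± 3.42 and 51.8% ± 3.93 (SD, n = 3 each). Neither share overlapped between groups, with p = 0.1 in the two-sided exact permutation test, the smallest value that 3 against 3 allows. The 3 shares add up to the whole, so they are not separate results. The Ccnd3 share of 26.8% ± 2.64 and 29.6% ± 4.04 overlapped (exact permutation p = 0.4). Among the D-type cyclins the order of levels was Ccnd2, Ccnd1, Ccnd3 in control, where Ccnd1 and Ccnd3 overlapped, and Ccnd2, Ccnd3, Ccnd1 in IL-4 libraries, with no overlap between neighbours.

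**Figure D2:**
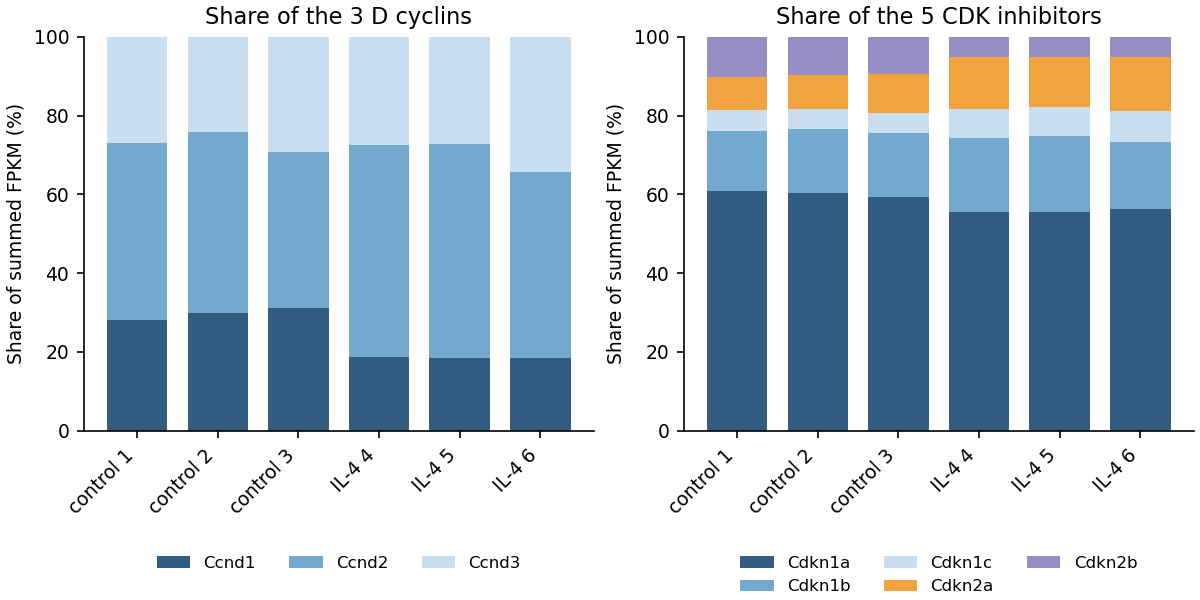
Stacked bars give the percent of summed FPKM taken by each D-type cyclin (left) and each CDK inhibitor (right) in every mRNA-seq library. The Ccnd1 segment covers 28 to 31.1% in control and 18.5 to 18.8% in IL-4 libraries, and the Cdkn2b segment 9.58 to 10.3% and 5.08 to 5.24%.

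The E-type cyclins fell together. Ccne1 (chr7:38097984-38107490, minus strand), which encodes cyclin E1, was at 11.69, 10.86 and 12.40 FPKM in control and 6.60, 7.50 and 7.22 FPKM in IL-4 libraries. Its log2 fold change was -0.54 (SE 0.08, edgeR adjusted p = 0.00124), which is 68.9% of control. Ccne2 (chr4:11190433-11204779, plus strand), which encodes cyclin E2 and was the least abundant of the 10 genes in both groups, was at 5.72, 5.59 and 4.99 FPKM in control and 3.26, 3.07 and 2.58 FPKM in IL-4 libraries. Its log2 fold change was -0.70 (SE 0.12, edgeR adjusted p = 0.00206), or 61.5% of control. The groups of both genes were apart. Ccne1 supplied 68.2% ± 2.78 of the E-type cyclin FPKM in control and 70.5% ± 3.39 in IL-4 libraries, a difference within the spread (SD, n = 3 each, exact permutation p = 0.5). The summed FPKM of the 5 cyclins was 216 ± 7.34 in control and 130 ± 4.84 in IL-4 libraries (SD, n = 3 each, exact permutation p = 0.1).

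Of the Cip/Kip inhibitors, Cdkn1c rose and the other two did not pass the test. Cdkn1a (chr17:29090979-29100722, plus strand), the p53-induced inhibitor p21, was the most abundant of the 10 genes in both groups, at 109.62, 101.45 and 111.10 FPKM in control and 78.44, 79.51 and 94.32 FPKM in IL-4 libraries. Its normalized counts overlapped between the groups, and the log2 fold change was -0.18 (SE 0.08, edgeR adjusted p = 0.0988). Without IL-4 replicate 6, in which it was highest, the value was -0.25 with an adjusted p of 0.00377 (edgeR). Cdkn1b (chr6:134920401-134925525, plus strand), the inhibitor p27 that holds resting cells in G1, gave 27.52, 27.14 and 30.30 FPKM in control and 26.50, 27.38 and 28.72 FPKM in IL-4 libraries, which overlap. In normalized counts it was instead slightly higher after IL-4 (log2 fold change 0.13, SE 0.06, edgeR adjusted p = 0.131). The sign depended on scaling, as it was -0.04 with library totals. Cdkn1c (chr7:143458339-143461059, minus strand), the inhibitor p57 from an imprinted gene, was at 9.40, 8.38 and 9.78 FPKM in control and 10.26, 10.69 and 13.03 FPKM in IL-4 libraries. The groups were apart, though the highest control and the lowest IL-4 library were close. Its log2 fold change was 0.47 (SE 0.10, edgeR adjusted p = 0.00693), or 139% of control. With library totals it was 0.30 (edgeR adjusted p = 0.0531), and with limma on FPKM 0.27 to 0.29 (limma adjusted p = 0.0553 to 0.0835), so the call depended on scaling.

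The 2 genes of the Ink4 locus moved in opposite directions. On mouse chromosome 4, Cdkn2a (chr4:89274473-89294619) and Cdkn2b (chr4:89306289-89311032, both GRCm38) lie 11669 bases apart on the minus strand. Cdkn2b, which encodes p15 and is induced by TGF-beta in many cells, was at 18.56, 16.42 and 17.97 FPKM in control and 7.39, 7.26 and 8.60 FPKM in IL-4 libraries. All IL-4 libraries were far below the control libraries, and the fitted level was 49.6% of control (log2 fold change -1.01, SE 0.09, edgeR adjusted p = 5.57e-05). Cdkn2a was at 15.07, 14.48 and 18.34 FPKM in control and 18.45, 18.08 and 23.21 FPKM in IL-4 libraries. These overlap because control replicate 3 lay between IL-4 replicates 4 and 5, whereas normalized counts did not (332 to 413 against 462 to 576). The log2 fold change was 0.47 (SE 0.12, edgeR adjusted p = 0.0170). It was 0.43 with an adjusted p of 0.0729 without control replicate 1 and 0.41 with an adjusted p of 0.0688 without control replicate 2 (edgeR).

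Library totals in place of TMM scaling shifted the median of all genes by -0.17 on the log2 scale. The 10 most abundant genes took 9.14% to 9.59% of counts in control and 13.81% to 15.5% in IL-4 libraries, and their part in the shift was not tested. On that scale 7 of the 10 genes were lower, beside 35.4% of all genes, and none was higher, beside 12.2%, because Ccnd2 and Cdkn1a passed the test and Cdkn1c and Cdkn2a (0.30, edgeR adjusted p = 0.0950) did not. Shares do not depend on this scaling. Within the 5 inhibitors, Cdkn1c took 5.14% ± 0.130 of the summed FPKM in control and 7.51% ± 0.244 in IL-4 libraries, and Cdkn2a took 8.92% ± 0.754 and 13.2% ± 0.594. Cdkn1b took 15.9% ± 0.514 and 18.4% ± 1.09. Cdkn1a took 60.2% ± 0.823 and 55.8% ± 0.323, and Cdkn2b took 9.89% ± 0.370 and 5.15% ± 0.0827 (SD, n = 3 each). No library of one group reached the range of the other for any of these 5 shares, each with an exact permutation p of 0.1. The 5 shares add up to the whole, so they are not separate results, and the FPKM of Cdkn1b itself overlapped between the groups. In normalized counts, 50.4% of all genes tested also showed no overlap. The summed inhibitor FPKM of 179 ± 9.91 and 151 ± 15 overlapped (exact permutation p = 0.2), and their difference of -27.9 became -8.30 with TMM scaling per transcript length. The ratio of summed cyclin to summed inhibitor FPKM was 1.2, 1.33 and 1.11 in control and 0.921, 0.944 and 0.746 in IL-4 libraries, so cyclin mRNA exceeded inhibitor mRNA in each control library and was below it in each IL-4 library (exact permutation p = 0.1).

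**Figure D3:**
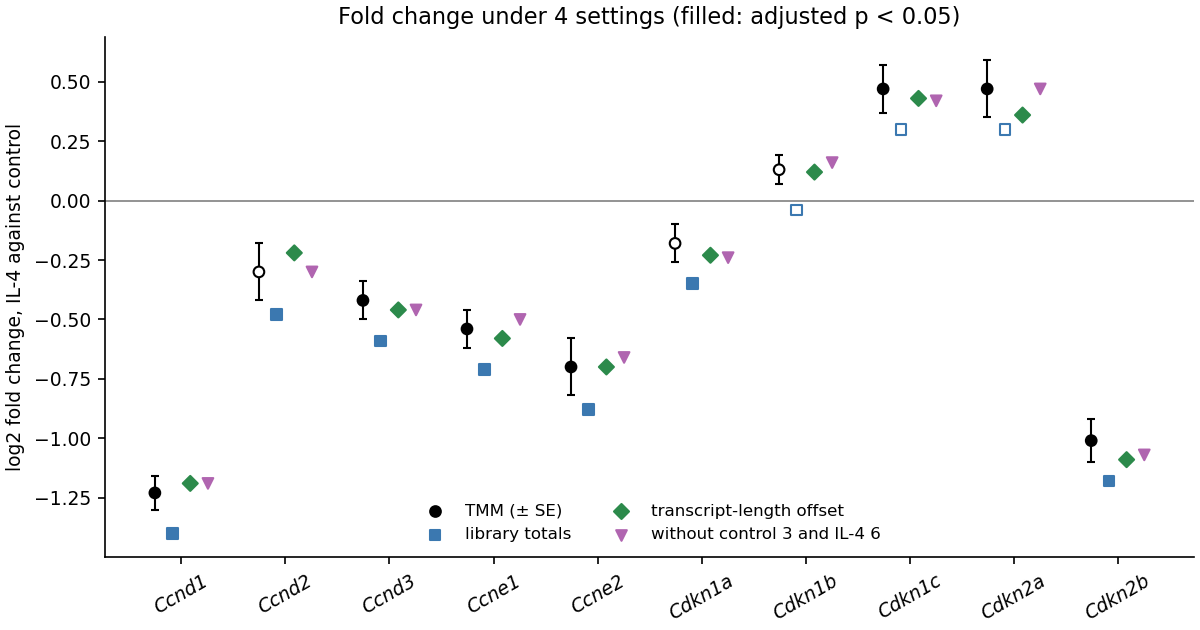
Log2 fold change of IL-4 against control under TMM scaling (circles, with SE), library totals (squares), a transcript-length offset (diamonds) and without control replicate 3 and IL-4 replicate 6 (triangles); filled symbols have an adjusted p under 0.05. With the length offset and without the 2 libraries, all 10 genes are past the threshold, 7 lower and 3 higher, whereas library totals move every value down.

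With the length offset, as without the 2 libraries low in long transcripts, 7 of the 10 genes were lower and 3 higher. More genes were called overall as well, with 25.3% of all genes lower and 25.8% higher with the offset and 25.1% and 25.5% without the 2 libraries. The added calls were Ccnd2 and Cdkn1a, which were lower, and Cdkn1b, which was higher. The values of the 7 genes called in the TMM fit ranged with the length offset from -1.19 for Ccnd1 to 0.43 for Cdkn1c (edgeR), and none changed sign. Cdkn2a, which has the shortest transcripts of the 10 genes, was at 0.47 in the TMM fit and 0.36 with the offset. It stayed at 0.47 without the 2 libraries.

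Cdkn2a holds a pair of transcripts with separate first exons, one for p19Arf and one for p16Ink4a, which share their later exons. In RefSeq they measure 929 bases and 850 bases. The deposited mean transcript length of the gene, which weights each transcript by its estimated abundance, was 906.25, 905.91 and 905.49 bases in control and 894.30, 894.66 and 893.05 bases in IL-4 libraries. The difference of -11.9 bases between the means was larger than the spread in either group (exact permutation p = 0.1, the smallest possible). Taken with the RefSeq lengths, the p19Arf share was 70.7% ± 0.482 in control and 55.7% ± 1.07 in IL-4 libraries (SD, n = 3 each). The p16Ink4a transcript then came to 4.34, 4.23 and 5.46 FPKM in control and 8.10, 7.86 and 10.6 FPKM in IL-4 libraries, 1.89 times higher on average and without overlap. The p19Arf transcript came to 10.7, 10.2 and 12.9 FPKM in control and 10.3, 10.2 and 12.6 FPKM in IL-4 libraries, which overlap (exact permutation p = 0.6). With TMM scaling the ratios were 2.13 and 1.11. This split was looked for after the length values were seen, and it rests on the transcript model of the authors' program. The versions of the transcripts they used are not given in the sources used here, and of 11484 genes with a single transcript, 54.1% have the same length in the files as in RefSeq and 83.6% are within 30 bases of it.

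**Figure D4:**
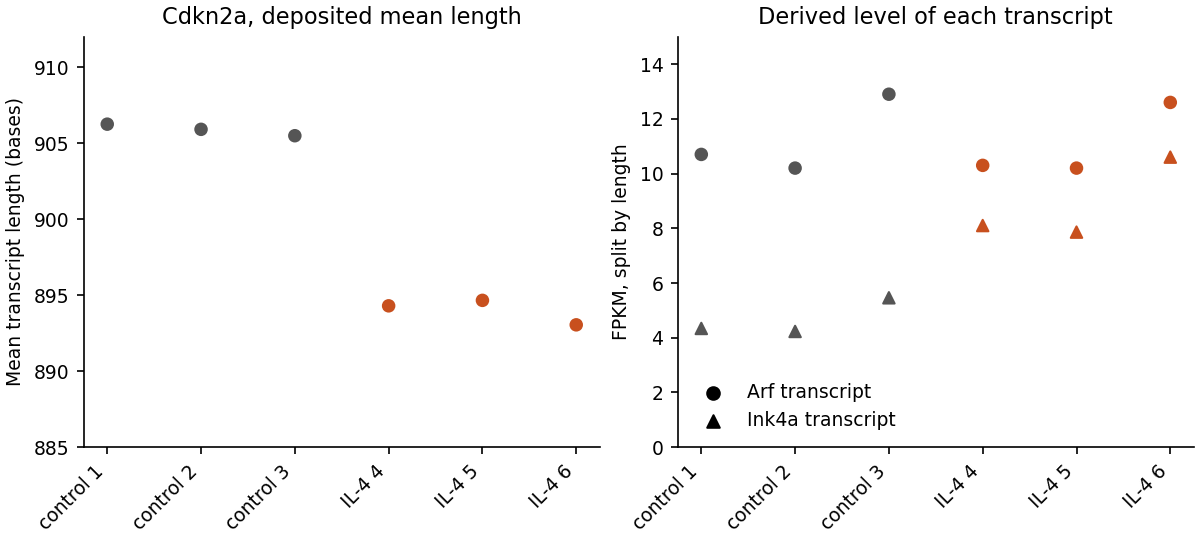
Left, mean Cdkn2a transcript length in bases as deposited, in 3 control (grey) and 3 IL-4 (orange) libraries, on an axis that does not start at 0; right, FPKM of the p19Arf (circles) and p16Ink4a (triangles) transcripts derived from it. The mean length is 906 bases in control and 894 bases in IL-4 libraries, and p16Ink4a is at 4.23 to 5.46 FPKM in control and 7.86 to 10.6 FPKM in IL-4 libraries.

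The 2 first exons have separate promoters, and these were searched for E2F, STAT6, TCF/LEF and SP1/KLF elements. Within 250 bases before to 50 after each start in the RefSeq-based table (GRCm38.p6), the p19Arf promoter holds an E2F element, searched as TTTCCCGC or TTTGGCGC on both strands, which 1.56% of 32851 promoters hold, and the p16Ink4a promoter holds none. The element begins 99 bases before the p19Arf start and is shown in capitals with 10 bases on each side, since it sets the promoters apart:
p19Arf promoter, chr4:89294701-89294728, minus strand: tctgggaagcTTTCCCGCgcgactgggg
Promoters of 6 genes (Ccnd3, Ccne1, Cdkn1a, Cdkn1b, Cdkn2a and Cdkn2b) were in the table. None of them held the STAT6 element, searched as TTC and GAA spaced by 4 bases, which 6.95% of all promoters hold. The TCF/LEF element CTTTGAT, which 3.73% hold, was absent from them too. The SP1/KLF element GGGCGG, which 35.7% of all promoters hold, had 3 matches in the p19Arf promoter and 1 in the p16Ink4a promoter. It also had 4 matches in Ccne1, 2 in each Ccnd3 promoter, and 1 each in Cdkn1b and Cdkn2b. One Cdkn1a promoter held 2 and the other 0. A match is a description of letters and not of binding.

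The other genes of the G1/S switch were mostly lower or not called. Of 32 G1/S regulators tested, 11 were lower and 2 higher, beside 18.4% and 19.0% of all genes, with a median log2 fold change of -0.14. The higher count was 1 without control replicate 1 or control replicate 2. The kinase partners of the D-type cyclins differed from each other. Cdk4 gave 204.41 to 229.28 FPKM in control and 175.96 to 217.29 FPKM in IL-4 libraries (log2 fold change -0.01, edgeR adjusted p = 0.952), and the low-abundance Cdk6 fell from 5.35 to 5.65 FPKM to 3.62 to 4.11 FPKM (-0.31, adjusted p = 0.0123). Cdk2, the partner of the E-type cyclins, fell by 0.43 on the log2 scale (SE 0.09, edgeR adjusted p = 0.00566). Rb1, the retinoblastoma gene, was at -0.04 (edgeR adjusted p = 0.805).

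The 6 largest falls in this list were E2f8 (-0.75), E2f7 (-0.73), Skp2 (-0.65), Cdc25a (-0.64), E2f2 (-0.62) and Cdkn2c (-0.47), with edgeR adjusted p-values from 0.000159 to 0.0112. E2f7 and E2f8 are repressors that are themselves E2F targets, Skp2 marks p27 for degradation, Cdc25a activates CDK2, and Cdkn2c encodes the Ink4 inhibitor p18. Thus 2 of the Ink4 genes, Cdkn2b and Cdkn2c, fell, while Cdkn2a rose. The Ink4 gene Cdkn2d, named after its value was seen, was at -0.08 (edgeR adjusted p = 0.587). The 2 rises were Cables1 (0.73, adjusted p = 0.00275), a CDK-binding adaptor, and Myc (0.33, adjusted p = 0.0168, edgeR), which drives growth and division in many cells. The Cdkn2c transcripts were at 22.11 to 25.73 FPKM in control and 15.48 to 16.07 FPKM in IL-4 libraries, above Cdkn2b in both groups.

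Genes that E2F factors switch on for replication were lower as a group. Of 24 tested, 18 were lower and 0 higher, beside 18.4% and 19.0% of all genes. The count of lower genes was 15 without control replicate 1 or 2. It was 14 without control replicate 3, IL-4 replicate 4 or IL-4 replicate 5, and 21 without IL-4 replicate 6. Of the fitted values 24 of 24 were below 0, with a median of -0.53. Mcm5, a subunit of the replicative helicase, fell from 15.60 to 18.62 FPKM to 7.62 to 8.36 FPKM, and Tk1, thymidine kinase, fell from 25.77 to 29.14 FPKM to 12 to 14.45 FPKM (log2 fold change -0.90 each, edgeR adjusted p = 8.38e-05 and 0.000105). Of 20 G2/M genes, 11 were lower and 0 higher (median -0.28), beside the same shares of all genes. The lower count was 6 without control replicate 1 or 2 and 7 without control replicate 3, IL-4 replicate 4 or IL-4 replicate 5. Aurkb, a mitotic kinase, and the proliferation marker Mki67 both fell by 0.69 on the log2 scale (edgeR adjusted p = 0.000359 and 0.00996), while Ccnb1 and Ccnb2, named after their values were seen, were at 0.00 and -0.01. Mki67 was at 33.09 to 38.07 FPKM in control and 21.66, 21.43 and 14.56 FPKM in IL-4 libraries, lowest in IL-4 replicate 6, a library low in long transcripts. Macrophage markers moved in the same direction as these lists, and their part in them was not tested. By cell assays, the study reports more proliferation of APs with IL-4 and, at a later day than these libraries, more cells positive for Ki67 protein. The mRNA levels of day 4 do not measure the rate of division.

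**Figure D5:**
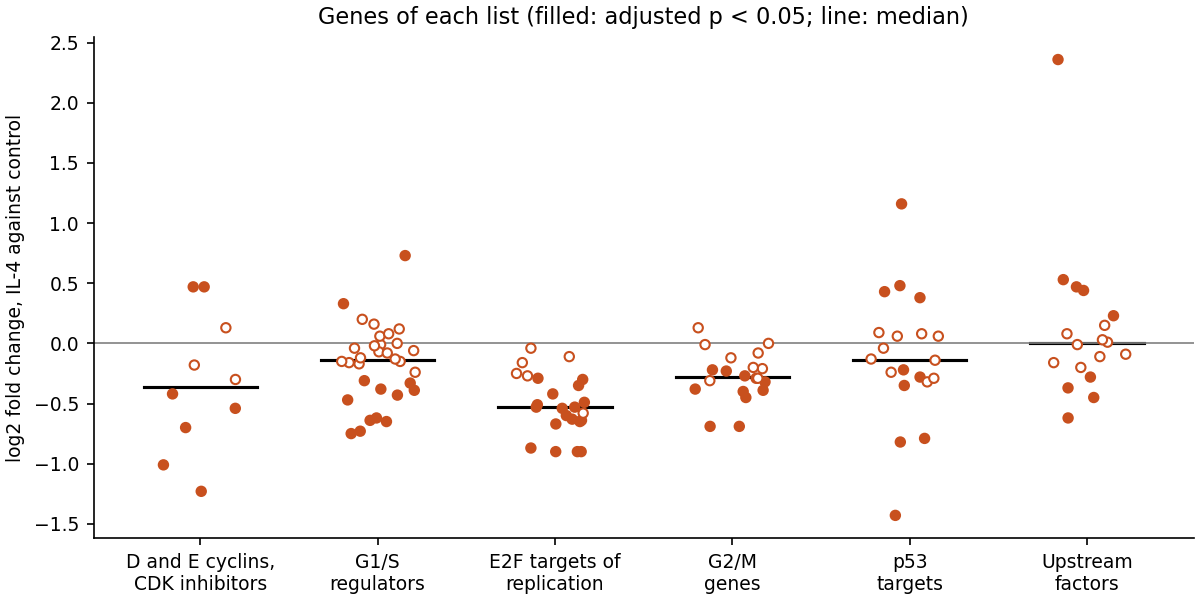
Log2 fold change of IL-4 against control for each gene of 6 lists, filled where the adjusted p is under 0.05, with a line at each median. The medians are -0.36 for the cyclins and inhibitors, -0.14 for G1/S regulators, -0.53 for E2F targets of replication, -0.28 for G2/M genes, -0.13 for p53 targets and 0.00 for upstream factors.

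Of 20 genes that p53 induces, as it does Cdkn1a, 6 were lower and 4 higher (median -0.13), where 18.4% and 19.0% of all genes were, so the higher share was near that of all genes. Gadd45a (1.16, adjusted p = 8.44e-05), a growth arrest gene, Bbc3 (0.48, adjusted p = 0.00532), which encodes the death protein PUMA, and Sesn2 (0.43, adjusted p = 0.00232), a stress sensor, rose most. Pmaip1 (-1.43, adjusted p = 3.11e-06), which encodes the death protein NOXA, Btg2 (-0.82, adjusted p = 5.91e-05), an antiproliferative gene, and Sesn1 (-0.79, adjusted p = 0.000158, edgeR for all), a paralog of Sesn2, fell most. Mdm2, whose product degrades p53, was at -0.14 (edgeR adjusted p = 0.0733), and Trp53 itself fell by 0.28 (edgeR adjusted p = 0.0166). Cdkn1a, at -0.18, lay close to the median of these targets.

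Among 18 factors that act upstream of the cyclins and inhibitors, 5 were higher and 4 lower (median 0.00), beside 19.0% and 18.4% of all genes. The higher count was 3 without control replicate 1, 2 or 3 or without IL-4 replicate 5. Klf4, which can induce Cdkn1a and repress Ccnd1, rose from 15.83 to 16.45 FPKM to 70.77 to 79.80 FPKM (log2 fold change 2.36, SE 0.06, edgeR adjusted p = 1.64e-07). Foxo1, an activator of Cdkn1b, rose by 0.53 (edgeR adjusted p = 0.00186), and Cebpa, an adipogenic factor, by 0.47 (edgeR adjusted p = 0.00361). Smad3, which carries the TGF-beta signal to Cdkn2b, fell by 0.62 (edgeR adjusted p = 0.00206). Polycomb repressors of the Ink4 locus differed. The methyltransferase gene Ezh2 fell by 0.45 (edgeR adjusted p = 0.00115), whereas Cbx7 and Bmi1, named after their values were seen, were at 0.44 (edgeR adjusted p = 0.0435) and -0.11 (edgeR adjusted p = 0.161). Foxm1, a driver of G2/M genes, fell by 0.37 (edgeR adjusted p = 0.00340). Stat6, the factor activated by the IL-4 receptor, was named after its value was seen and stood at 0.03. With library totals the counts for these 5 lists became 16 lower and 1 higher for G1/S regulators, 23 and 0 for E2F targets, 15 and 0 for G2/M genes, 10 and 3 for p53 targets, and 7 and 3 for upstream factors. On that scale 35.4% of all genes tested were lower and 12.2% higher.

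The small RNA libraries of day 2 held 23790821 to 32061504 reads of mature miRNAs. A miRNA pairs with mRNAs mainly through its seed, bases 2 to 8, and 12 seed families were read, 6 of them from the X-linked H19X cluster that the study examined and 6 known in the field as regulators of cyclins or CDK inhibitors. Of 640 miRNAs tested, none passed an adjusted p of 0.05 in edgeR's quasi-likelihood test, whereas DESeq2 called 12. At an unadjusted p under 0.05, edgeR gave 39 miRNAs, 4.53% of those tested as higher and 1.56% as lower, and DESeq2 gave 32. miR-450b-5p belongs to the cluster, as do miR-322-5p and miR-503-5p, whereas miR-16-5p lies elsewhere and shares the seed of miR-322-5p. The sequences, from the files and identical in RefSeq, are given with the seed in capitals, since all the sites that follow turn on these letters:
miR-322-5p: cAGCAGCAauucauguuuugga
miR-16-5p: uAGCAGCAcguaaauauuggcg
miR-503-5p: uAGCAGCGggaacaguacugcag
miR-450b-5p: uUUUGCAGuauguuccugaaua
miR-221-3p: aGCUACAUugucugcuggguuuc
miR-26a-5p: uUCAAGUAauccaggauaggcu

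In reads scaled to a common library size with TMM (CPM), miR-322-5p was at 2539 and 1293 in control and 5737 and 3684 in IL-4 libraries, and miR-503-5p at 8.01 and 5.41 against 26.1 and 22.6. The groups did not overlap for either, with folds of 2.46 and 3.64 (edgeR adjusted p = 0.450 and 0.0866, n = 2 each). miR-450b-5p, at 243 and 162 CPM in control and 863 and 556 CPM in IL-4 libraries, was 3.50-fold higher (edgeR adjusted p = 0.0866). In DESeq2 all of these 3 passed, with adjusted p-values of 0.0127, 9.25e-07 and 9.25e-07. The other cluster members miR-351-5p, miR-542-3p and miR-450a-5p were 2.03-fold, 2.73-fold and 2.51-fold higher (edgeR adjusted p = 0.107, 0.0866 and 0.0897, and past the threshold in DESeq2). None of the 10 genes holds a match to bases 2 to 8 of these 3. With bases 2 to 7 followed by an A also counted, Ccne2 holds 1 match for miR-542-3p and Ccnd2 1 for miR-450a-5p. miR-16-5p, which held 77.9% of the reads with the miR-322-5p seed, was at 20991 and 13793 CPM in control and 17069 and 16033 CPM in IL-4 libraries. The summed CPM of that seed was therefore 20769 ± 6377 in control and 22713 ± 2430 in IL-4 libraries, which overlap (SD, n = 2 each). By contrast, miR-503-5p is alone in its seed group, with a summed level of 6.71 ± 1.84 CPM in control and 24.3 ± 2.51 CPM in IL-4 libraries (SD, n = 2 each).

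Matches to these seeds were sought in 1 3′ UTR per gene, the one with the greatest length in GENCODE M21. Across the 12 families, the 10 genes held 25 sites. Ccnd2, with a 3′ UTR of 5173 bases, held 8, Ccnd1 held 5 in 2676 bases, and Cdkn2a held 0 in 264 bases. The miR-322-5p seed matched 6 of the 10 genes, namely Ccnd1, Ccnd2, Ccnd3, Ccne1, Cdkn1a and Cdkn2b, at 1 site each. When matches to bases 2 to 7 followed by an A were counted as well, the same seed had 3 sites in Ccnd1, 3 in Ccnd2, 2 in Ccnd3 and 2 in Ccne1. Of 3′ UTRs whose length was within 20% of the gene's own, the same 7 letters occurred in 54.4% for Ccnd2, 35.8% for Ccnd1, 22.1% for Cdkn1a, 15.2% for Ccnd3, 12.7% for Cdkn2b and 9.25% for Ccne1. The miR-503-5p seed matched Ccnd1 at 2 sites and Ccnd2 at 1, where 6.90% and 11.1% of 3′ UTRs of like length hold a match. The sites follow with the matched letters in capitals and 10 bases on each side (GRCm38, all in 3′ UTR exons), since these letters tell the genes with a match from those without:
Ccnd1, miR-503-5p seed, chr7:144930861-144930887, minus strand: cctctcatggCGCTGCTaccgatgact
Ccnd1, miR-503-5p seed, chr7:144930784-144930810, minus strand: acgttgttttCGCTGCTattggagggt
Ccnd1, miR-322-5p seed, chr7:144930385-144930411, minus strand: catgccaccaTGCTGCTggcccggggg
Ccnd1, miR-450b-5p seed, chr7:144931469-144931495, minus strand: gggatctgtcCTGCAAAgttgaaggga
Ccnd2, miR-503-5p seed, chr6:127128602-127128628, minus strand: tattatttttCGCTGCTaagaagctaa
Ccnd2, miR-322-5p seed, chr6:127128532-127128558, minus strand: tttcacggtgTGCTGCTattttagaaa
Ccnd3, miR-322-5p seed, chr17:47599284-47599310, plus strand: ttgctttgctTGCTGCTtagcttctgt
Ccne1, miR-322-5p seed, chr7:38098014-38098040, minus strand: attttgtaagTGCTGCTatgtctatca
Cdkn1a, miR-322-5p seed, chr17:29100079-29100105, plus strand: tctggtgatcTGCTGCTcttttccccc
Cdkn2b, miR-322-5p seed, chr4:89306730-89306756, minus strand: ctccacaagcTGCTGCTgcaggggaac
Cdkn2b, miR-450b-5p seed, chr4:89306554-89306580, minus strand: ggggattcacCTGCAAAatggcattta

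Of the 5 genes called lower, Ccnd1, Ccnd3, Ccne1 and Cdkn2b hold a match to the miR-322-5p or miR-503-5p seed and Ccne2 does not, while of the 2 genes called higher, Cdkn1c and Cdkn2a, neither does. Ccnd2 and Cdkn1a hold one and did not pass the test, and Cdkn1b holds none and did not pass it either. Of 3′ UTRs of like length, the miR-322-5p letters occur in 5.61% for Cdkn2a, 12.1% for Cdkn1c, 25.1% for Ccne2 and 42.1% for Cdkn1b. The miR-503-5p letters occur in 0.637%, 2.65%, 5.24% and 8.6%. Most 3′ UTRs as short as those of Cdkn1c and Cdkn2a thus lack a match, and a link between match and direction was not tested. The part of these miRNAs in the mRNA levels of these libraries was not tested here, and the small RNA and mRNA libraries differ in day. In APs, the study reports lower Ccnd1 mRNA and protein with mimics of either of these miRNAs. Either mimic also repressed a reporter that carried part of the Ccnd1 UTR, in cells other than APs. In the mRNA assay in APs, a mimic of miR-450b-5p, which has a match in Ccnd1 too, had no such effect on Ccnd1 mRNA. In the Ccnd1 UTR searched here, the miR-322-5p match begins at base 2206 and the miR-503-5p matches at bases 1730 and 1807. If numbered alike, the reporter part ends before the former and holds the latter. The latter are each followed by an A, so they also count as matches to bases 2 to 7 of miR-322-5p followed by an A.

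Cdkn1b and Cdkn1c each hold 1 match to the seed of miR-221-3p and miR-222-3p, which are known to target them:
Cdkn1b, miR-221-3p seed, chr6:134924421-134924447, plus strand: aaagcattggATGTAGCattgcgcaat
Cdkn1c, miR-221-3p seed, chr7:143458916-143458942, minus strand: cctttcgttcATGTAGCaggaaccgga
miR-221-3p was at 1194 and 1145 CPM in control and 1648 and 1452 CPM in IL-4 libraries (fold 1.33, edgeR adjusted p = 0.834). For Cdkn1c, 4.60% of 3′ UTRs of like length hold the same letters, and for Cdkn1b 22.2%. The E-type cyclins Ccne1 and Ccne2 each hold 1 match to the miR-26 seed:
Ccne1, miR-26a-5p seed, chr7:38098241-38098267, minus strand: aggagggtgcTACTTGAcccactggac
Ccne2, miR-26a-5p seed, chr4:11203854-11203880, plus strand: tcgggggtttTACTTGAtagaaaggtt
miR-26a-5p was at 29793 and 31352 CPM in control and 20463 and 24456 CPM in IL-4 libraries (fold 0.735, edgeR adjusted p = 0.834). Of the remaining sites, Ccnd1, Ccnd2 and Cdkn1a hold 1 each for the miR-17 family, Ccnd2 holds 2 for miR-221-3p, 2 for the miR-29 family and 1 for miR-26a-5p, Cdkn1a holds 1 for the miR-29 family, and Ccne2 holds 1 for the miR-34 family. The summed CPM of the miR-17, miR-29 and miR-34 families overlapped between the groups, with ratios of IL-4 to control of 1.12, 0.870 and 1.05. None of the 10 genes held a match to bases 2 to 8 of let-7, though Ccnd1 held 1 and Ccnd2 3 matches to bases 2 to 7 followed by an A. The let-7 family's summed CPM of 59850 ± 11219 in control and 58394 ± 7802 in IL-4 libraries (SD, n = 2 each) was the highest of the 12 families. Adding matches to bases 2 to 7 followed by an A raised the number of sites from 25 to 55, of which some are counted for both miR-322-5p and miR-503-5p, since these seeds differ in base 8 alone.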

How the data were processed

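The mRNA libraries were made from poly(A) RNA and sequenced on the BGISEQ-500. The authors cleaned reads with SOAPnuke and mapped them to mm10 with HISAT, and Bowtie2 and RSEM, which quantify against transcripts, gave the gene values. The deposited expected counts are not normalized, and the deposited FPKM values were scaled by the authors for length and depth. The small RNA counts were deposited per precursor and arm (miRDeep2, miRBase), and where one miRNA had several precursors the highest count was kept. A gene missing from a library was set to 0, and 1 row naming no gene (at most 0.000225% of counts) was left out.

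For the tests, expected counts were made whole numbers, low genes were removed (filterByExpr, at least 10 counts and 15 in total), and edgeR 4.0.16 in R 4.3.3 was run with TMM scaling and Benjamini-Hochberg adjustment. Shares and sums were compared by two-sided exact permutation tests over libraries (scipy 1.17.1). Alternatives were DESeq2 1.42.0, limma 3.58.1 on FPKM with 1 or 0.1 added before log2, upper-quartile scaling, library totals, no filter, leaving out each library in turn, and for miRNAs a replicate block. The code was tested on simulated data. All 10 members are named. Of list genes with an adjusted p under 0.05 and at least 100 normalized counts, the largest rises and falls were named (6 of each for G1/S, 3 for p53 targets and upstream factors, 2 for E2F and G2/M genes), with Cdk2, Cdk4, Cdk6, Rb1, Trp53, Mdm2 and Mki67 in any case. The members and lists were chosen with earlier results of these data known. Sites come from GENCODE M21 and promoters, genes and miRNAs from RefSeq, all on GRCm38, the assembly of mm10. The days of harvest come from the study's text.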

Additional observations from a re-analysis of the deposited data

How the results depend on the processing

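Ccnd1, Ccnd3, Ccne1, Ccne2 and Cdkn2b kept their direction and an adjusted p under 0.05 in all 15 alternatives each. With library totals 4963 genes were lower and 1704 higher, against 2582 and 2663 with TMM, and limma gave 4916 and 1697 with 1 added to FPKM, 4904 and 1694 with 0.1 added, and 4702 and 1735 without a filter. Under each of these 4 settings, 0 of the 10 cyclins and inhibitors were higher and Cdkn1b stood at -0.04. Without control replicate 3 and IL-4 replicate 6 together, 3 were higher. Leaving out 1 mRNA library gave 1 to 2 genes called higher, the loss being Cdkn2a without control replicate 1 or 2.

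For the miRNAs, edgeR called 0 higher and 0 lower. DESeq2 called 12 higher and 0 lower, no filter gave 16 and library totals 6. Leaving out 1 small RNA library gave 0 to 8 higher and 0 to 1 lower, with the lone sample assumed to vary like the other group. With a replicate block, 25 were higher and 6 lower, among them miR-322-5p at 1.34 and miR-503-5p at 1.88 on the log2 scale. The labels do not say that equal numbers share a culture or day, and with 2 pairs the correlation of 0.42 between the groups' replicate differences over 640 miRNAs is a hint only, so the samples were not treated as pairs. The mRNA groups share no replicate numbers. Counting matches to bases 2 to 7 followed by an A as well gave 55 seed sites in place of 25. With 2 small RNA libraries per group the spread is poorly known.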
